A study of Mus musculus with 6 samples.

Results

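A set of 41 genes of the serum response factor (SRF) pathway and of the actin and contractile apparatus was followed in N2A-A5 cells, a line of the mouse neuroblastoma Neuro-2a described in the labels as acceptor cells. All 41 were found by symbol among the 40413 genes of the deposited table, and 36 of them had enough counts to be among the 13705 genes tested. The genes were chosen from their known roles with the difference between the same 6 libraries already in view, so what follows for them is a description and gives no independent support for its own direction. RNA was sequenced from 3 libraries of cells kept for 96 h with 10 µM retinoic acid in medium that held 1% fetal bovine serum and no blasticidin, and from 3 libraries of undifferentiated cells (0 h), which grew in 10% serum with 10 µg/mL blasticidin. Retinoic acid, serum, blasticidin and time in culture changed together and cannot be told apart, and the labels name a single line, so other lines were not analysed here.

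SRF is a transcription factor that binds a short DNA element, the CArG box, and works with partner proteins. Its partners MRTF-A and MRTF-B bind monomeric actin in the cytoplasm. When a signal such as serum drives actin into filaments, they are released, enter the nucleus and switch on genes of the actin cytoskeleton together with SRF. The products build and anchor actin filaments, crosslink them, cap or sever them and pull on them through myosin II, and in neurons SRF is known for its part in neurite growth and growth cone structure.

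The CArG box was looked for in the 250 bases before and 50 bases after the annotated start of each gene, because it is the DNA element that SRF binds. It consists of CC, 6 bases that are each A or T, and GG, and it reads as the same pattern on both strands. Of 38 genes of the set with such a window in RefSeq (GRCm38.p6, an earlier build than the mm39 of the counts), 9 held an exact box (23.7%). Among tested genes with a window, 7 of 34 in the set held one (20.6%), against 165 of 10118 others (1.63%). Because the set was chosen for known roles around SRF, this difference is a description and gives no independent support for the link. The 9 genes of the set with a box were Srf, with 2 boxes, and Actg1, Vcl, Lima1, Cnn2, Myl6, Myl9, Fhl1 and Fhl2, the last with 1 box at each of its annotated starts. Actb, Pxn and Tagln had no window in the table. The stretches below lie before the start of the genes whose levels are described next, with the box in capitals, and the Acta2 stretch shows in capitals its 2 positions that match the box at all but 1 base (19.8% of tested genes had an exact box or such a near match).
Srf: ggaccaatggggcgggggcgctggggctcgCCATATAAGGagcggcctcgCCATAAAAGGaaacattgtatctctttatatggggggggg
Vcl: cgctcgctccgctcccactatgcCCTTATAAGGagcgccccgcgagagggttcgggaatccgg
Cnn2: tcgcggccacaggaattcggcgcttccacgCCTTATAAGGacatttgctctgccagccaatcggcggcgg
Lima1: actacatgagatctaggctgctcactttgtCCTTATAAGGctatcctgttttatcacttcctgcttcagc
Actg1: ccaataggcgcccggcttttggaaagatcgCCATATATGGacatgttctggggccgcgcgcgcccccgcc
Myl6: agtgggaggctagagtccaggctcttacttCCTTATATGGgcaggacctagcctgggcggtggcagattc
Myl9: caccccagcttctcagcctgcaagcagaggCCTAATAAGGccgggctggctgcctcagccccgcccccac
Acta2: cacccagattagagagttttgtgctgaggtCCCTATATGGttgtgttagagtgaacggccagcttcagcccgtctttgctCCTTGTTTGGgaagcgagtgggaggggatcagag
The Srf stretch is chr17:46556185-46556274, minus strand, with its boxes starting 82 and 62 bases before the start of transcription. Vcl is shown at chr14:20929148-20929210, plus strand, and its box starts 227 bases before the start. Cnn2 is shown at chr10:79988514-79988583, plus strand (box at 56 bases before the start) and Lima1 at chr15:99820157-99820226, minus strand (47 bases). Actg1 is shown at chr11:120348546-120348615, minus strand (90 bases), Myl6 at chr10:128493020-128493089, minus strand (50 bases before one of its 2 annotated starts) and Myl9 at chr2:156775273-156775342, plus strand (161 bases). The Acta2 stretch is chr19:34255374-34255487, minus strand, with the near matches starting 84 and 34 bases before the start. A match describes letters in this window and does not show that SRF binds there.

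To 6 significant digits, the 96 h libraries held 16833700, 19000400 and 18826600 counts and the 0 h libraries 17628900, 20932400 and 18219500 (replicates 1, 2 and 3, the order used throughout). Levels are counts-per-million (CPM) on library sizes scaled with TMM factors, and a gene is called higher or lower where the edgeR quasi-likelihood test across all 13705 genes gave a Benjamini-Hochberg adjusted p under 0.05. The predicted gene Gm26917 took 28.7% to 31.7% of counts at 96 h and 18.7% to 22.7% at 0 h. Without it and the mitochondrial and small structural RNA genes, 26 of the SRF-linked genes were lower and 3 higher, the same counts as with them. Scaling by library size only in place of TMM moved the median over all tested genes to a log2 fold change of -0.22, against 0.03 with TMM, and directions are therefore relative to the TMM scale. In RNA from whole cultures, fewer cells that express a gene and less of its RNA per cell cannot be told apart.

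Most of the SRF-linked genes were lower at 96 h, by amounts that ran from 1.16-fold to 17.4-fold, and 3 were higher. Of the 36 tested, 26 were lower and 3 higher, while 28.8% of all tested genes were lower and 28.7% higher. By at least 2-fold, 8 were lower (3.77% of all tested genes) and 1 was higher (11.7% of all tested genes). The 3 libraries at 96 h all lay below the 3 at 0 h for 27 of the 36 (31.7% of all tested genes), and all above for 3 (32.4% of all tested genes). The median log2 fold change of the 36 was -0.68, with the middle of the range from -0.99 to -0.20 (quartiles), beside a median of 0.03 over all tested genes. With library size only, 32 were lower and 1 higher, while 42.7% of all tested genes were lower and 17.6% higher. Because the genes were chosen with this contrast known, and because Acta2, Myl9 and Pdlim3 passed the count filter only through the 0 h libraries, these counts are given as a description. The set as a whole took 0.658%, 0.652% and 0.705% of all counts at 96 h, against 1.21%, 1.23% and 1.19% at 0 h. A large part of its counts came from the abundant actins, as Actb and Actg1 made up 39.6% to 41.2% of the set's counts at 96 h and 45.8% to 47.7% at 0 h.

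**Figure D1:**
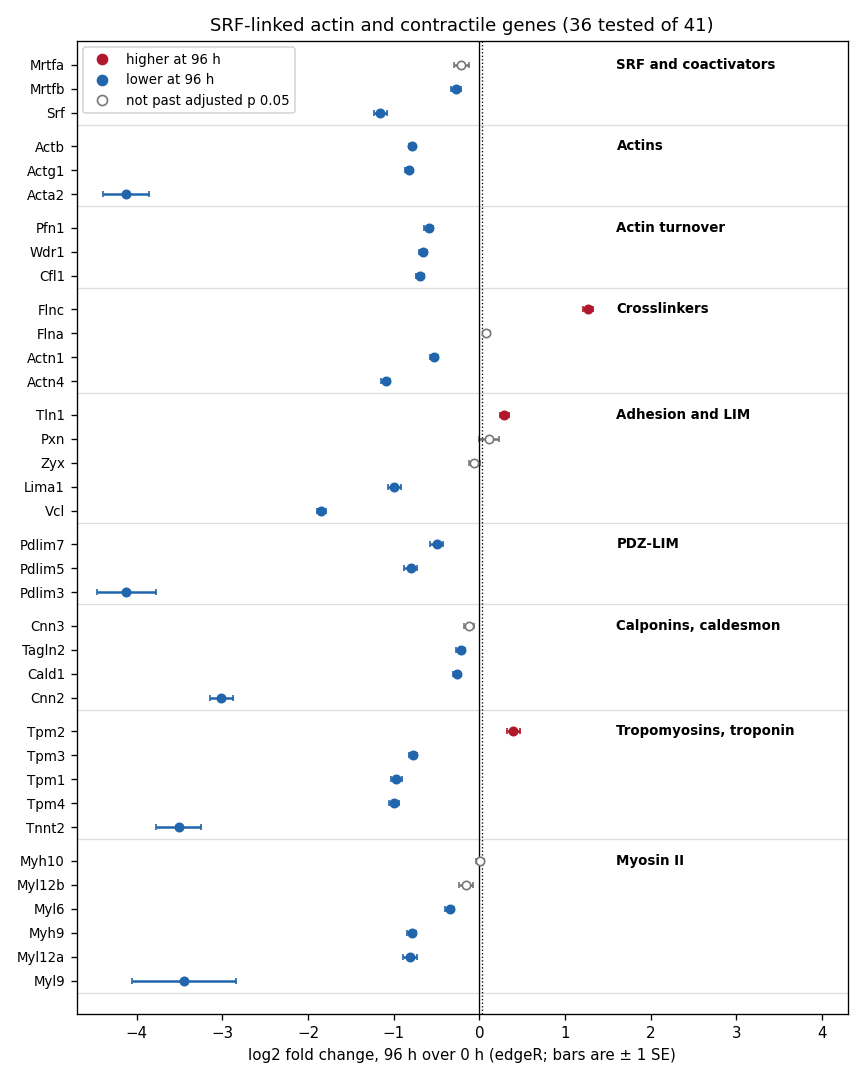
Log2 fold change of each tested SRF-linked gene, 96 h over 0 h, from edgeR (x axis), with genes down the page grouped by role. Points are estimates from 3 libraries a group and bars are ± 1 SE, filled points passed the test and the dotted line is the median of all tested genes, 0.03. Acta2, Pdlim3, Tnnt2, Myl9 and Cnn2 lie at or below -3.01, and Flnc stands alone above 1.

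Among the regulators, Srf itself was lower and its coactivator genes differed little. Srf had 23.5, 22.6 and 24.1 CPM at 96 h, against 48.3, 53.3 and 54.7 CPM at 0 h. All 96 h libraries were low and near each other, and the log2 fold change was -1.15 ± 0.07 (SE, n = 3 libraries a group, as for all fold changes here), or 2.23-fold lower. Mrtfb, which encodes MRTF-B, had 44.4, 40.1 and 42.1 CPM at 96 h and 51.1, 51.4 and 50.6 CPM at 0 h, a small fall without overlap (-0.27 ± 0.06). Mrtfa, which encodes MRTF-A, had 26.3, 23.9 and 28.8 CPM at 96 h and 32.1, 28.1 and 31.4 CPM at 0 h. Its libraries overlapped, its log2 fold change was -0.21 ± 0.09 and it missed the threshold narrowly (edgeR adjusted p = 0.0509), passing it with DESeq2 size factors (0.0491), with library size only (8.79e-04), without the count filter (0.0162), and without 96 h replicate 3 (0.0255) or without 0 h replicate 2 (0.0288).

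The actins of non-muscle cells were lower together, and the smooth muscle actin fell much further. Actb, the gene of beta-actin, had 1783, 1764 and 1711 CPM at 96 h, against 3062, 2934 and 3068 CPM at 0 h (log2 fold change -0.79 ± 0.04). Actg1, the gene of gamma-actin, had 1224, 1223 and 1211 CPM at 96 h, against 2185, 2092 and 2200 CPM at 0 h (-0.82 ± 0.04). The libraries of a group lay within a narrow band for both genes, and the ratio between them moved little: Actb held 59.0% ± 0.4 of the counts of 6 actin genes at 96 h and 58.2% ± 0.07 in the 0 h libraries (means with SD, n = 3). Counts of both were not whole in any library (within 0.01), so some of their reads were divided with other sequences, and their sum gave -0.80 ± 0.04. Acta2, the smooth muscle alpha-actin, had 0.333, 0.409 and 0.390 CPM at 96 h, against 6.20, 6.81 and 7.16 CPM at 0 h (-4.13 ± 0.27, 17.4-fold lower, 19 counts against 417). It held 0.0129% ± 0.0017 of actin counts at 96 h and only 0.130% ± 0.010 at 0 h.

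Genes of actin turnover showed a narrow range of falls. Cfl1 encodes cofilin, which severs actin filaments, and had 201, 198 and 210 CPM at 96 h, against 327, 335 and 325 CPM at 0 h (log2 fold change -0.69 ± 0.04). Wdr1, whose product works with cofilin to take filaments apart, had 117, 108 and 120 CPM at 96 h, against 182, 181 and 181 CPM at 0 h (-0.66 ± 0.05). Pfn1, the gene of profilin, which delivers actin monomers to growing ends, had 109, 122 and 111 CPM at 96 h, against 176, 173 and 166 CPM at 0 h (-0.59 ± 0.05). None of the 3 overlapped between the groups, and their fold changes lay close to those of Actb and Actg1.

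Crosslinkers divided. Actn4, one of the alpha-actinins that bundle filaments in non-muscle cells, had 129, 113 and 121 CPM at 96 h, against 253, 265 and 258 CPM at 0 h (log2 fold change -1.09 ± 0.05), and its relative Actn1 was lower by less, with 112, 107 and 110 CPM at 96 h, against 154, 155 and 166 CPM at 0 h (-0.53 ± 0.05). Actn1 made up 47.0% ± 0.9 of alpha-actinin counts at 96 h and 37.7% ± 1.1 at 0 h. Flnc, the gene of filamin C, a crosslinker best known from striated muscle, was higher, with 224, 230 and 215 CPM at 96 h, against 90.1, 87.7 and 100.4 CPM at 0 h. The 96 h libraries were far above those of 0 h, without overlap, and the log2 fold change of 1.27 ± 0.06 was the only rise of at least 2-fold in the set. Flna, the filamin of most cells, had 634, 657 and 618 CPM at 96 h and 592, 580 and 630 CPM at 0 h and did not pass (0.08 ± 0.04), though with library size only it was lower (-0.17, edgeR adjusted p = 0.0155) and with upper-quartile factors higher (0.16, edgeR adjusted p = 0.00684). Within the filamins, whose shares do not depend on scaling, Flnc made up 22.6% ± 0.01 of counts at 96 h and 10.9% ± 0.3 at 0 h (SD, n = 3), while Flna held 64.5% ± 0.4 and 70.4% ± 0.5.

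In focal adhesions, where integrins are tied to actin, the genes moved apart. Vcl, the gene of vinculin, which strengthens the link under load, had 37.2, 36.6 and 37.1 CPM at 96 h, against 129, 135 and 135 CPM at 0 h (log2 fold change -1.84 ± 0.05, 3.59-fold lower). Tln1, the gene of talin 1, which binds integrin tails and vinculin, had 176, 161 and 175 CPM at 96 h, against 135, 137 and 147 CPM at 0 h. This was a small rise without overlap (0.29 ± 0.05), and with library size only Tln1 did not pass (0.04, edgeR adjusted p = 0.609). Lima1 encodes EPLIN, an actin-bundling LIM protein, and had 27.7, 23.6 and 27.3 CPM at 96 h, against 50.3, 54.6 and 51.4 CPM at 0 h (-0.99 ± 0.07). Zyx and Pxn encode the adhesion LIM proteins zyxin and paxillin. Zyx had 75.9, 76.2 and 76.2 CPM at 96 h and 75.5, 75.7 and 86.2 CPM at 0 h (-0.06 ± 0.06), and Pxn had 13.4, 15.1 and 14.2 CPM at 96 h and 14.9, 13.0 and 11.5 CPM at 0 h (0.12 ± 0.12). Both overlapped between the groups and did not pass, and Zyx passed as lower with library size only (-0.31, edgeR adjusted p = 0.00107). Fhl1 and Fhl2, LIM genes abundant in muscle, were hardly counted: Fhl1 reached 3 counts at 96 h and 4 at 0 h, and Fhl2 had 0 in every library, which allows up to 0.0598 CPM at 96 h and 0.0483 CPM at 0 h (3 counts over the group, counting error only).

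The PDZ-LIM genes encode adaptors that bind alpha-actinin or tropomyosin on filaments. Pdlim3, a form found mainly in muscle, had 0.799, 0.234 and 0.278 CPM at 96 h, against 7.54, 8.47 and 6.32 CPM at 0 h (log2 fold change -4.12 ± 0.35, 21 counts against 466). The more abundant relatives were lower by less. Pdlim5 had 26.2, 27.5 and 23.8 CPM at 96 h, against 47.1, 41.9 and 46.1 CPM at 0 h (-0.80 ± 0.08), and Pdlim7 had 43.8, 48.8 and 53.3 CPM at 96 h, against 73.0, 64.0 and 69.2 CPM at 0 h (-0.50 ± 0.08). Counts of Pdlim7 were not whole in any library (within 0.01), so some of its reads were divided with other sequences. Pdlim1 was not tested, with 1 count over the 96 h libraries and 0 over those of 0 h. The libraries of the 3 tested genes did not overlap.

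Calponins and transgelins bind along actin filaments and are widely used as markers of contractile cells, and the tested member of lowest level fell furthest. Cnn2, the gene of calponin 2, had 2.40, 2.81 and 2.78 CPM at 96 h, against 22.5, 19.6 and 22.7 CPM at 0 h (log2 fold change -3.01 ± 0.13, 8.06-fold lower). Cnn3, the calponin of non-muscle and neural cells, had 77.3, 71.3 and 74.8 CPM at 96 h and 79.0, 80.2 and 84.1 CPM at 0 h. The 96 h libraries of Cnn3 were all below those of 0 h, but the difference of -0.12 ± 0.06 did not pass (edgeR adjusted p = 0.0722), and it did with library size only (-0.37, 1.79e-04), without the filter (0.0365) and without 96 h replicate 1 (0.0429). Tagln2, the transgelin of non-muscle cells, had 122, 133 and 133 CPM at 96 h, against 148, 148 and 155 CPM at 0 h (-0.22 ± 0.05). Tagln, the smooth muscle transgelin SM22, had a single count, in 96 h replicate 3, against 31 over the 0 h libraries, too few for the filter. Its ratio was 25.1 in favour of 0 h (exact 95% interval 4.18 to 1021, counting error only), and without the filter it passed as lower (edgeR adjusted p = 0.00156). Cnn1, the smooth muscle calponin, had 1 count in each group. Cald1, the gene of caldesmon, a regulator of actin and myosin contact, had 437, 429 and 462 CPM at 96 h, against 517, 534 and 545 CPM at 0 h (-0.27 ± 0.04). Within the calponin and transgelin family Cnn2 held 1.20% ± 0.08 of counts at 96 h and 7.92% ± 0.54 at 0 h, whereas Cnn3 held 33.7% ± 1.9 and 29.7% ± 0.3.

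Tropomyosins lie along filaments and set which myosins and severing proteins can bind. Tpm1 had 45.5, 42.4 and 51.3 CPM at 96 h, against 90.3, 90.6 and 91.4 CPM at 0 h (log2 fold change -0.97 ± 0.07). Tpm4 (1.99-fold) and Tpm3 (1.71-fold) were lower by similar amounts, Tpm4 with 128, 120 and 139 CPM at 96 h, against 264, 258 and 250 CPM at 0 h, and Tpm3 with 121, 126 and 135 CPM at 96 h, against 220, 216 and 218 CPM at 0 h. Tpm2 alone among the 4 was higher, with 72.5, 67.7 and 84.0 CPM at 96 h, against 56.0, 59.4 and 55.3 CPM at 0 h (0.39 ± 0.08), though it did not pass with library size only (0.14, edgeR adjusted p = 0.207). Its share of tropomyosin counts, which scaling does not touch, was 19.8% ± 0.7 at 96 h and 9.14% ± 0.34 at 0 h, while that of Tpm4 was 34.2% ± 0.6 and 41.3% ± 0.6. These are values per gene, and the isoforms that each tropomyosin gene makes by splicing cannot be told apart in this table. Tnnt2, cardiac troponin T, which sits on tropomyosin in striated muscle, had 1.33, 0.701 and 0.668 CPM at 96 h, against 8.57, 11.1 and 10.7 CPM at 0 h (-3.51 ± 0.26).

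**Figure D2:**
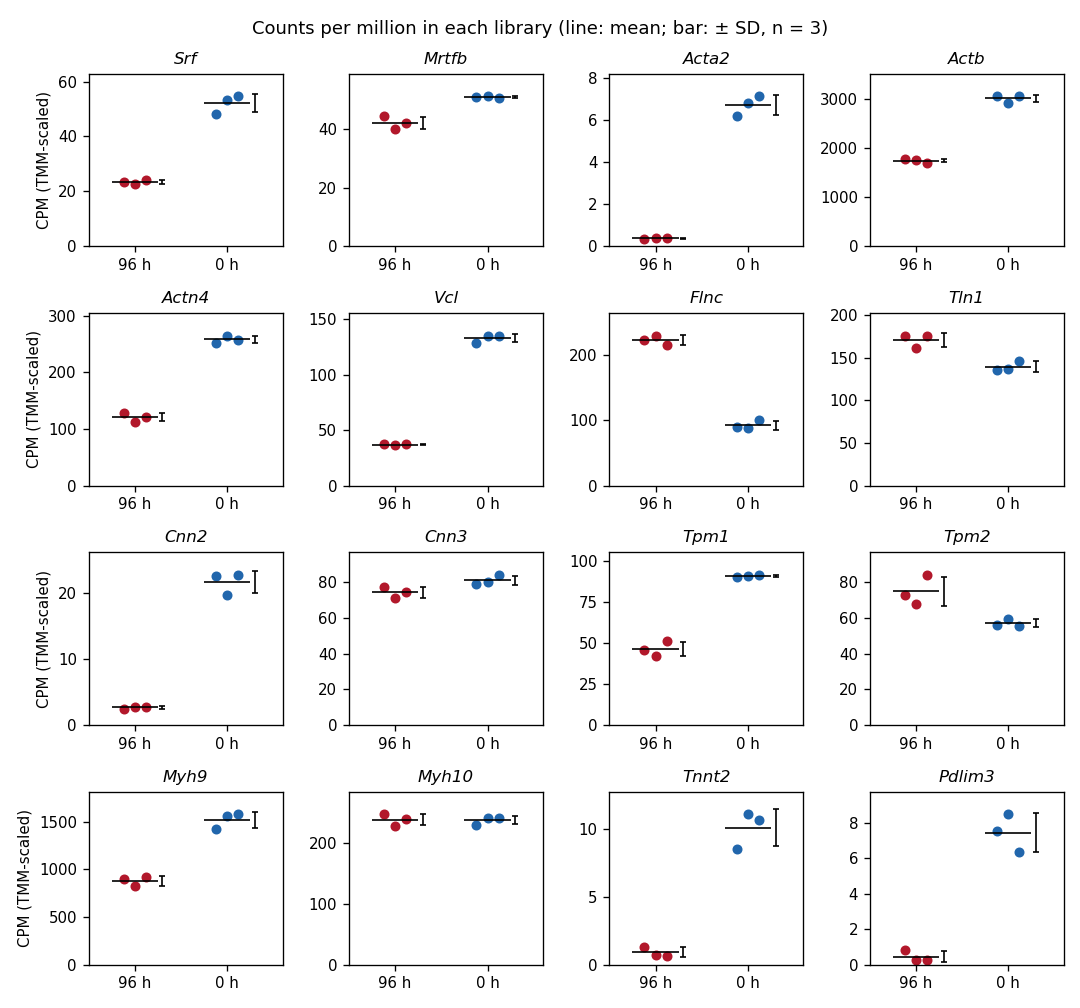
CPM of 16 of the genes in each library (points), 96 h at the left and 0 h at the right of each panel, with the mean (line) and SD (bar, n = 3). The groups do not overlap in any panel but that of Myh10, and Flnc, Tln1 and Tpm2 are the panels in which the 96 h libraries are the higher ones.

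Non-muscle myosin II, the motor that contracts actin, was lower in the heavy chain gene Myh9, while Myh10 did not pass the test. Myh9, the heavy chain of myosin IIA, had 899, 823 and 916 CPM at 96 h, against 1426, 1562 and 1578 CPM at 0 h (log2 fold change -0.79 ± 0.05). Myh10, the heavy chain of myosin IIB, the form prominent in neurons, had 248, 229 and 241 CPM at 96 h and 230, 242 and 242 CPM at 0 h (0.01 ± 0.05), and with library size only it was lower (-0.24, edgeR adjusted p = 0.00319). Myh10 made up 21.3% ± 0.5 of non-muscle heavy chain counts at 96 h and 13.5% ± 0.3 at 0 h. Counts of Myh9 and Myh10 were not whole in any library while their sum was (within 0.01). Some reads were thus divided between them, and their sum gave -0.65 ± 0.05. Of the light chains, Myl6, the essential light chain, had 147, 150 and 163 CPM at 96 h, against 185, 202 and 196 CPM at 0 h (-0.34 ± 0.05). Counts of Myl6 were not whole in any library (within 0.01), so some of its reads were divided with other sequences. Myl12a and Myl12b encode near-identical regulatory light chains. Myl12a had 21.9, 22.7 and 26.3 CPM at 96 h, against 39.1, 43.4 and 41.9 CPM at 0 h (-0.81 ± 0.08), while Myl12b had 25.2, 28.0 and 24.3 CPM at 96 h and 28.5, 30.8 and 27.2 CPM at 0 h and did not pass (-0.16 ± 0.08), though it was lower with library size only (-0.41, edgeR adjusted p = 0.00137). Their counts were mostly not whole while their sum was whole in every library (within 0.01), so reads were divided between them, and the sum had 47.2, 50.7 and 50.7 CPM at 96 h, against 67.6, 74.2 and 69.1 CPM at 0 h (-0.51 ± 0.06). Myl9, the regulatory light chain of smooth muscle, had 0.133, 0.117 and 0.111 CPM at 96 h, against 0.981, 0.979 and 2.19 CPM at 0 h (-3.45 ± 0.61, 6 counts against 84).

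**Figure D3:**
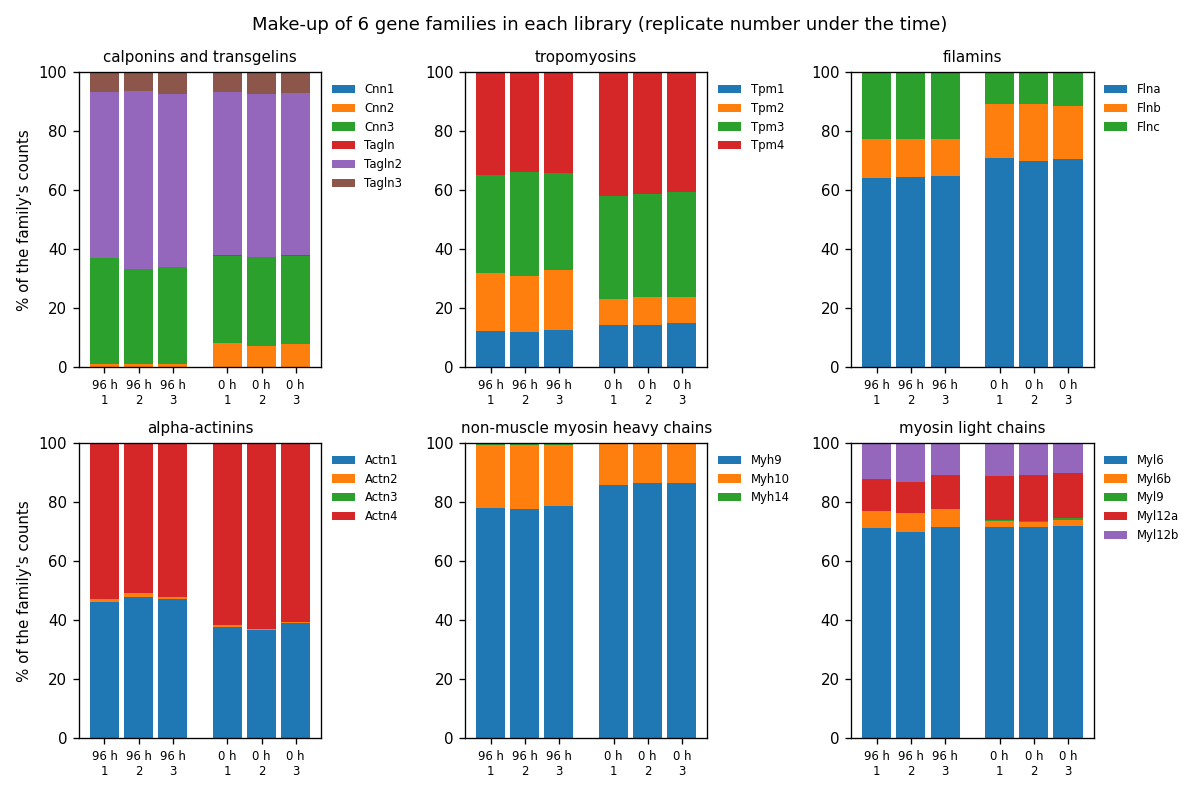
Share of each gene in the counts of its family (y axis, %), in each library, with the 3 libraries at 96 h at the left and the 3 at 0 h at the right of each panel. The shares of Flnc, Tpm2, Actn1 and Myh10 are larger at 96 h, and that of Cnn2 is smaller, in every library of the group.

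Per length, with CPM divided by the median length in kilobases of each gene's coding transcripts (GENCODE M21, GRCm38), the genes spanned several orders of magnitude. Actb was highest with 1109 ± 24 CPM per kb at 96 h and 1911 ± 48 at 0 h (SD, n = 3). Actg1 followed with 668 ± 4 and 1182 ± 32 CPM per kb, then Myl6 with 226 ± 12 and 287 ± 12. Vcl had 7.03 ± 0.06 CPM per kb at 96 h and 25.2 ± 0.7 at 0 h, and Srf had 8.95 ± 0.29 and 19.9 ± 1.3. The 5 tested genes with a log2 fold change of -3.01 or lower, which are Acta2, Pdlim3, Tnnt2, Myl9 and Cnn2, lay lower still, at 0.107 to 1.57 CPM per kb at 96 h and 1.23 to 12.8 at 0 h. Of these, Acta2, Pdlim3, Tnnt2 and Myl9 are best known from muscle. Most defining markers of muscle were scarce in the cultures. Of 10 smooth muscle markers 7 were removed by the filter, among them Myh11 (17 counts at 96 h and 11 at 0 h) and Myocd (8 and 12). The summed level of the 10 was 16.0 to 17.6 CPM at 96 h and 15.6 to 16.0 CPM at 0 h. It came mostly from Smtn (means of 7.68 CPM at 96 h and 7.17 at 0 h) and Synpo2 (5.98 and 6.74). The smooth muscle genes of the set, Acta2, Tagln, Cnn1 and Myl9, are not among the 10. Of 17 skeletal and cardiac markers 9 were removed, with Myod1 at 17 and 18 counts and Myog at 5 and 0, and the summed level was 221 to 234 CPM at 96 h and 242 to 252 CPM at 0 h, mostly from the embryonic myosin gene Myh3 (9508 and 12649 counts). Of 10 fibroblast and pericyte markers Col3a1, Lum and Postn had 0 counts, Pdgfrb (2.11 ± 0.21) and Pdgfra (1.62 ± 0.21) were higher at 96 h, and the sum was 18.3 to 21.0 CPM at 96 h and 6.27 to 7.13 CPM at 0 h. The 7 Schwann cell markers summed to 9.30 to 10.7 CPM at 96 h and 2.93 to 5.15 CPM at 0 h. Only 2 of the 7 were tested, and 1, Erbb3, was higher (28.7% of all tested genes). Most of the sum came from Erbb3, with means of 8.28 CPM at 96 h and 3.22 CPM at 0 h. The 16 markers of the sympathoblast lineage of neuroblastoma summed to 1166 to 1249 CPM at 96 h and 1662 to 1725 CPM at 0 h. Of the 14 tested, 10 were lower and 1 higher (28.8% and 28.7% of all tested genes). Hand2, 1 of these markers, had 15585 counts at 96 h and 23608 at 0 h. The part of these marker levels in the falls of the SRF-linked genes was not tested.

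The genes that held an exact CArG box can be set beside those that did not. All 7 tested genes of the set with a box were lower (median log2 fold change -1.15), and of the 27 tested with a window and no box 18 were lower, 3 higher and 6 did not pass (median -0.53). Myl9 among those with a box, and Acta2 and Pdlim3 among those without, passed the count filter only through the 0 h libraries. Outside the set calls were about as frequent with a box as without. Of 165 other tested genes with an exact box 48 were higher (29.1%) and 49 lower (29.7%), with a median of -0.01, against 26.5% higher and 30.8% lower, with a median of -0.01, among 9953 other tested genes with a window and no box. These shares are a description, and boxes farther than 250 bases from a start were not searched.

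The other 6 lists of genes around the pathway were written without choosing genes by how they moved, though with results of these data known. Beside them, here and for the lists below, 28.8% of all tested genes were lower and 28.7% higher. With library size only these shares were 42.7% and 17.6%. Among 30 tested SRF partners and upstream regulators 18 were lower and 9 higher (20 and 4 with library size only), with a median log2 fold change of -0.34. Mical2, an enzyme that oxidises nuclear actin and so frees MRTFs, had 9.13, 8.65 and 9.24 CPM at 96 h, against 39.9, 41.1 and 44.5 CPM at 0 h (-2.22 ± 0.08, edgeR adjusted p = 1.37e-10), and Rac1, a small GTPase that promotes lamellipodia, was lower too (-0.60 ± 0.04). Arhgef2, which encodes the RhoA activator GEF-H1, had 239, 243 and 251 CPM at 96 h, against 104, 95 and 99.8 CPM at 0 h (1.29 ± 0.05, edgeR adjusted p = 1.41e-10), and the small GTPase gene Rhoc was also higher (1.07 ± 0.06). The list thus held upstream genes that moved in opposite directions without overlap.

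Of 42 tested genes of actin assembly and dynamics 24 were lower and 8 higher (32 and 5 with library size only), with a median of -0.34. Capzb, a subunit of the protein that caps growing filament ends, had a log2 fold change of -1.03 ± 0.06, and Tmod2, the neuronal tropomodulin, which caps the other end, -0.99 ± 0.05. Enah, an elongation factor of growth cones, had 235, 232 and 235 CPM at 96 h, against 152, 156 and 143 CPM at 0 h (0.64 ± 0.05). Cfl2, the cofilin of muscle, was higher as well (0.81 ± 0.06) beside the fall of Cfl1. Of 25 tested crosslinkers and membrane linkers 15 were lower and 5 higher (17 and 4 with library size only, median -0.25), with Ablim1 (-1.64 ± 0.07) and Csrp1, a LIM protein that binds alpha-actinin and zyxin (-1.20 ± 0.05), among the lower. The higher ones included Myl6b, a relative of Myl6 (1.39 ± 0.14), and Msn, the gene of moesin, which ties actin to the membrane (0.37 ± 0.05, 0.12 and no call with library size only).

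Of 29 tested focal adhesion and integrin genes 20 were lower and 5 higher (21 and 3 with library size only), with a median of -0.34. Itgav, the integrin alpha-V subunit, had 29.6, 30.7 and 26.8 CPM at 96 h, against 76.3, 80.7 and 71.2 CPM at 0 h (-1.39 ± 0.07), and Parva, the gene of parvin alpha, had -0.86 ± 0.05. Src, a tyrosine kinase of adhesions, had 41.6, 44.7 and 44.4 CPM at 96 h, against 18.2, 19.2 and 23.6 CPM at 0 h (2.15-fold higher), and Itga5, the fibronectin receptor subunit, was higher from a low level (1.21 ± 0.17). Other muscle-type targets of SRF were measured thinly, with 16 of 29 tested. Of these 8 were lower, with Csrp1 and Crip1 (-1.16 ± 0.15), and 1 was higher, Des, the muscle intermediate filament desmin (94 counts at 96 h and 44 at 0 h, 1.38 ± 0.40), a call lost without 96 h replicate 2 (edgeR adjusted p = 0.0642). Acta1, the skeletal muscle actin, was lower, with 4 counts at 96 h against 45 at 0 h (-3.08 ± 0.83). Acta1 and some other lower genes of this list passed the count filter only through the 0 h libraries, as Acta2 did. Their calls are given as a description. Of 11 tested immediate-early genes that SRF controls with its ternary complex partners, 5 were lower and 0 higher. Every log2 fold change was at or below -0.16, so by sign alone 0 could be higher at an unadjusted p under 0.05. DESeq2 and limma-voom also called 0 of them higher. With library size only 8 were lower, and Egr1 had 8.46, 10.7 and 9.97 CPM at 96 h, against 25.5, 25.6 and 27.8 CPM at 0 h (-1.43 ± 0.10), with Egr2 at -2.11 ± 0.29.

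**Figure D4:**
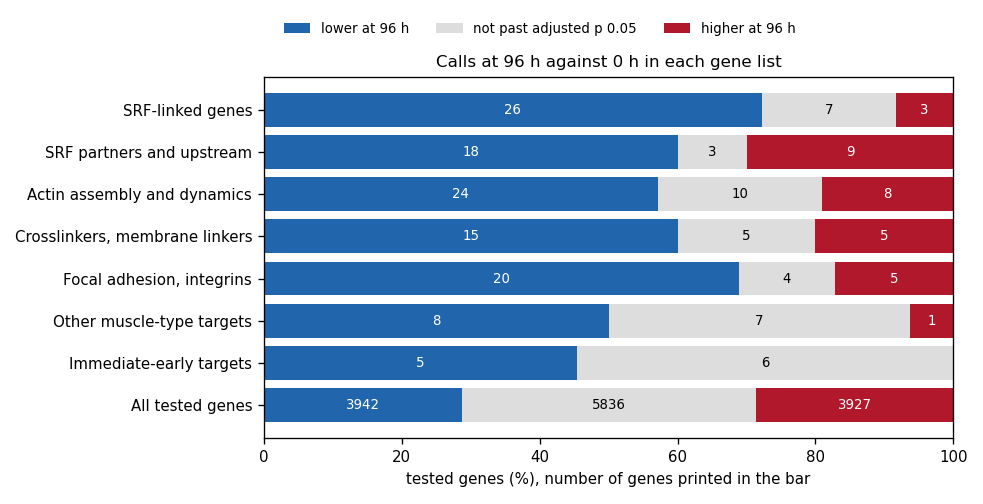
Percent of the tested genes of each list (rows) that were lower, not past an adjusted p of 0.05 or higher at 96 h against 0 h (edgeR), with the number of genes in each part of the bar. The SRF-linked genes, chosen with this contrast known, have 26 of 36 lower, and the bar of all 13705 tested genes has 3942 lower and 3927 higher.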

How the data were processed

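RNA-seq of 6 libraries was analysed, with groups and replicate numbers from the sample titles. The tools named in the submitters' processing notes are DESeq2 1.52.0, Salmon 1.10.1 and FastQC 0.12.1, with the build mm39. For the part each played, the annotation and any strand setting, nothing was given in the sources used here. The authors' deposited table holds expected counts (estimated counts, not normalised) for 40413 genes, with reads of near-identical genes divided by estimation. Counts were rounded, genes with few counts were removed (filterByExpr, minimum count 10), and edgeR 4.0.16 (R 4.3.3) with TMM factors compared the groups with its quasi-likelihood test, Benjamini-Hochberg adjusted over 13705 genes at 0.05. The standard error is the size of the log2 fold change divided by the square root of F. Alternatives were other scalings and filters, limma-voom (limma 3.58.1), DESeq2 1.42.0 (Wald test), stricter thresholds, fewer genes, a replicate block and leaving out each library. Named were all 41 genes, family relatives, the 2 higher and 2 lower genes of each list with the smallest adjusted p, and defining markers, some of which are not reported here. The genes and lists were chosen with earlier results of these data known. Promoter windows came from RefSeq (GRCm38.p6), matched by symbol.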

Additional observations from a re-analysis of the deposited data

How the results depend on the processing

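Calls and directions below come from edgeR unless another test is named. With library size only, 2409 genes of all tested were higher, and 1 of the SRF-linked genes. Higher calls were then 4 among SRF partners and upstream regulators, 5 in actin assembly and 3 in focal adhesions and integrins, and 8 immediate-early genes were lower. Flna (-0.17, adjusted p = 0.0155) and Myh10 (-0.24, adjusted p = 0.00319) turned from slightly above 0 to lower there. A test against a 1.5-fold change left 1515 genes higher and 852 lower of all tested, and 1 SRF-linked gene higher. Of the SRF-linked genes, Mrtfb, Pfn1, Wdr1, Actn1, Pdlim7, Tagln2, Cald1 and Myl6 were then no longer called lower. Tln1 and Tpm2 were no longer called higher. The same test left 4 higher and 2 lower SRF partners, 2 and 5 genes of actin assembly, and 2 and 4 crosslinkers. It left 3 and 5 focal adhesion genes, 0 and 5 other muscle-type targets, and 3 lower immediate-early genes. The median log2 fold change of the SRF-linked genes was -0.60 with a stricter filter, -0.59 with upper-quartile factors and -0.93 when scaled by library size only, and -0.73 to -0.68 when each library was left out in turn. Other muscle-type targets had 2 higher genes without the filter, with the DESeq2 Wald test, and without Gm26917, mitochondrial and small structural RNA genes, 0 higher and 5 lower with a stricter filter, and 0 to 2 higher when each library was left out. Dividing counts by transcript length before taking family shares gave differences, 96 h minus 0 h, of -0.0961 percentage points for Acta2, -5.21 for Cnn2, -2.80 for Tpm1, -3.40 for Myl12a and 11.3 for Flnc. Fewer calls against a 1.5-fold change follow from its wider null, and the cause of the other shifts was not tested. Of the alternatives for single SRF-linked genes, 12 ended a call, 14 added one, 2 turned the direction with a call and 585 did none of these. A turn of sign where neither fit gave a call was counted among the 585.

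Same-numbered libraries showed no shared deviation from their group means, with correlations of -0.01, 0.01 and -0.00. These values cannot tell whether libraries were paired by culture or preparation. With the replicate number as a block, 3854 genes were higher and 3858 lower, and of the SRF-linked genes 3 were higher and 27 lower, with Mrtfa added (adjusted p = 0.0323). Tagln, Cnn1, Pdlim1, Fhl1 and Fhl2 had too few counts for the test.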
